A study of Mus musculus with 12 samples.

Results

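Cadherins, claudins and immunoglobulin-type adhesion molecules hold the cells of the follicle wall and the cumulus to each other, and 8 of their transcripts are described here out of 35856 genes listed in either cell type. Nrcam, Cadm3, Cdh15, Cldn15 and Cldn18 had been picked because they were lower in mural granulosa cells (MGCs) of Sphk1/2gc-/- mice than of WT mice, and Cdh1, Cdh2 and Cldn11 stand beside them for comparison. The genotype difference in MGCs is therefore given as a description, with no test. The study sequenced RNA of MGCs, the granulosa cells that line the antral follicle, and of cumulus cells, those around the oocyte, and compared the genotypes to ask how loss of both sphingosine kinases changes granulosa cells after the ovulatory signal. Each of the 4 groups (WT MGCs, Sphk1/2gc-/- MGCs, WT cumulus cells and Sphk1/2gc-/- cumulus cells) had 3 libraries, 12 in all. The knockout genotype was Sphk1-/-; Sphk2 fl/fl; Fshr-Cre, in which Sphk1 is deleted in the whole animal and Sphk2 only in cells that express the Fshr promoter, which is active in granulosa cells. Females of 21 to 23 days, WT and knockout alike, were given 5 IU of equine chorionic gonadotropin (eCG) and, 48 h later, 5 IU of human chorionic gonadotropin (hCG), which acts on the luteinizing hormone receptor, and cells were taken 2 h after hCG. The labels do not say how many animals were pooled for a library or whether libraries of a group came from separate animals, so the p-values measure only the spread between these libraries.

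Cadherins bind the same kind of cadherin on a neighbouring cell and are tied to actin inside the cell through catenins, which makes the adherens junction. Claudins form the strands of tight junctions and either seal the space between cells or open it to chosen ions. Nrcam (an L1 family member) and Cadm3 (a nectin-like molecule, also called SynCAM3) belong to the immunoglobulin superfamily and are best known from nerve cells. In the ovary N-cadherin, the product of Cdh2, is the main cadherin of granulosa cells, whereas E-cadherin, the product of Cdh1, is known from the surface epithelium and from germ cells.

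Values are FPKM, a fragment count corrected for the length of a gene's exons and for sequencing depth, as deposited. Product with exon length gave whole reads, from which each library held 16100370 to 19761612 reads and each of the 96 values of the 8 transcripts was a whole number of reads within 0.0022 of a read. A level of 3 reads, taken as the floor of detection, was at most 0.0996 FPKM for these transcripts. The targeted Sphk1 ranged from 0.460 to 1.88 FPKM in WT MGCs and from 0.104 to 0.557 FPKM in knockout MGCs, but from 0.0699 to 0.0954 FPKM in WT cumulus cells and from 0.0778 to 0.557 FPKM in the cumulus libraries labelled as knockout, so that it did not separate the labels in either cell type. Sphk2, whose transcript can persist outside the floxed exons, overlapped between genotypes as well (5.18 to 5.86 against 4.51 to 6.29 FPKM in MGCs). Sphk1/2gc-/- MGC library 3 stood apart, with a correlation of 0.907 to 0.936 to the other MGC libraries and a sum of 6 mural markers of 924 FPKM against 3775 to 4489 FPKM in the others. WT cumulus library 3 listed 27541 genes above 0 against 18788 to 19289 in the other cumulus libraries. All 6 mural markers were higher in WT MGCs than in WT cumulus cells, Lhcgr among them (213 to 565 against 7.71 to 18.7 FPKM). The 6 cumulus markers were divided. Has2 and Ptx3 were higher in every WT cumulus library, whereas Tnfaip6, Npr2, Slc38a3 and Slc39a8 were higher in every WT MGC library. Their sum was lower in WT cumulus cells (265 to 597 FPKM) than in WT MGCs (908 to 1109 FPKM), so that the cumulus list as a whole went against the label.

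The level of these transcripts ran over a wide range. In WT MGCs the mean was 33.8 ± 1.68 FPKM for Cdh2, 3.02 ± 0.511 for Cldn11, 2.84 ± 0.857 for Nrcam, 2.13 ± 0.700 for Cldn15, 1.58 ± 0.838 for Cadm3, 1.19 ± 0.429 for Cdh1, 0.789 ± 0.559 for Cdh15 and 0.651 ± 0.572 for Cldn18 (SD, n = 3). Cdh2 stood clear of the rest, while every neighbouring pair below it in this order had WT libraries that overlapped. Cdh2 made up 66.8% of the FPKM of the 23 listed cadherins in WT MGCs, followed by Cdh5, the VE-cadherin of endothelium, at 6.25 FPKM, and Cdh1 and Cdh15 ranked 6 and 7. Among 20 claudins, Cldn12 led with 47.5% of the FPKM, and Cldn11, Cldn15 and Cldn18 ranked 2, 3 and 7. In cumulus cells, Cdh2 alone of the 8 was above 0.5 FPKM in either genotype.

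**Figure D1:**
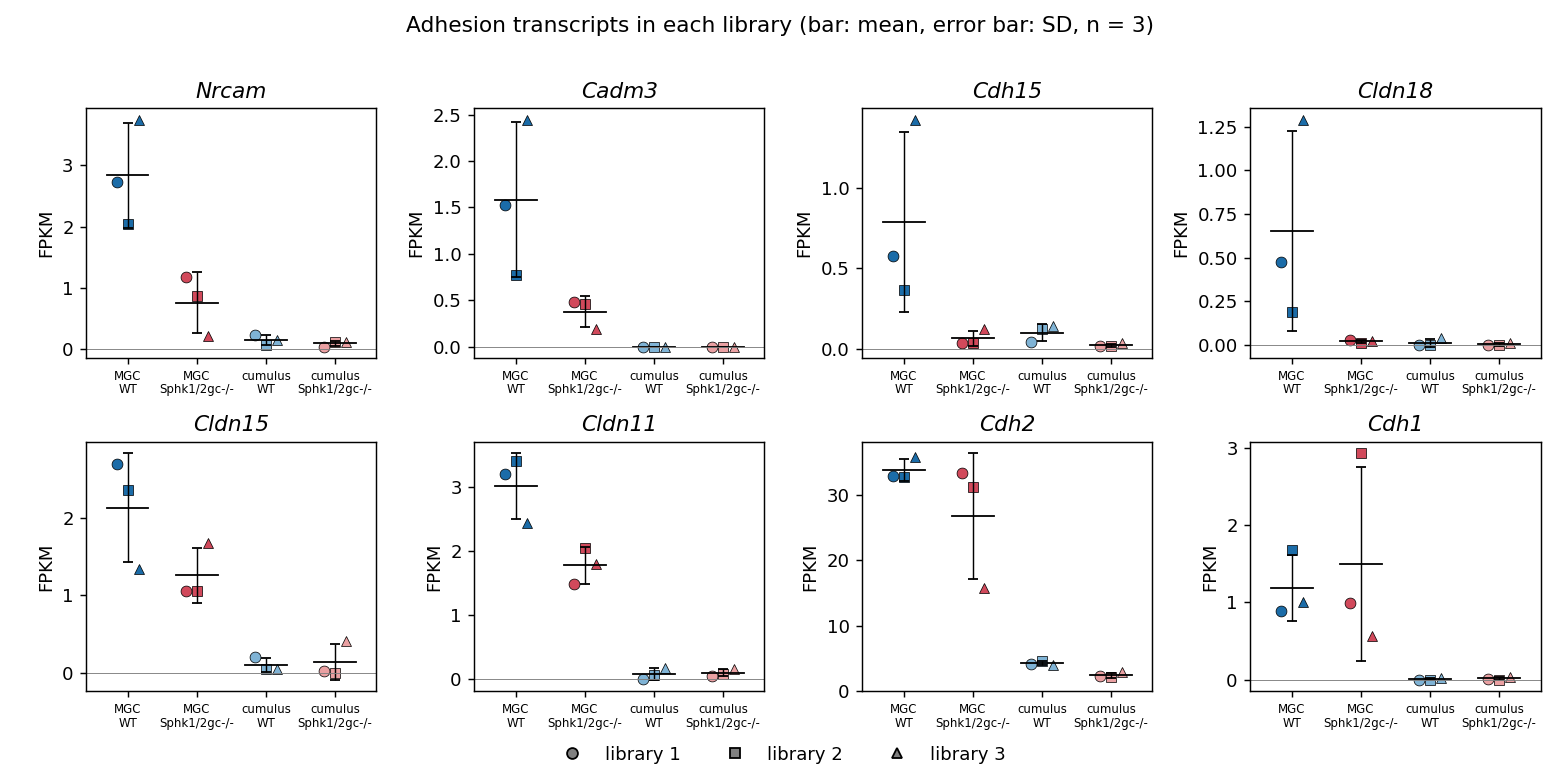
FPKM (linear axis, its own scale in each panel) of the 8 adhesion transcripts in the 12 libraries, by cell type and genotype; symbols stand for the library number, bars for the mean and error bars for the SD (n = 3). Nrcam, Cadm3, Cdh15 and Cldn18 have their highest value in WT MGC library 3, Cdh1 is highest in library 2 of each genotype, and all 8 lie near 0 in cumulus cells except Cdh2.

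Nrcam had the largest difference of the 5 chosen transcripts on the log2(FPKM + 1) scale, although Cldn18 and Cdh15 passed it with a pseudocount of 0.1 FPKM (−2.34 and −2.30 against −1.97). It measured 2.74, 2.04 and 3.75 FPKM in MGC libraries 1, 2 and 3 of WT mice, and 1.19, 0.875 and 0.211 FPKM in those of Sphk1/2gc-/- mice. The genotypes did not overlap, the WT mean was 3.75 times the Sphk1/2gc-/- mean, and the log2 difference of FPKM + 1 was −1.15 (SE 0.279). Nrcam, on chromosome 12 from 44328885 to 44601964, encodes a cell surface molecule that binds ankyrins inside the cell and clusters ion channels at the nodes of axons. Because Sphk1/2gc-/- library 3 held only 51 Nrcam reads against 198 and 269 in libraries 2 and 1, the difference was −0.90 without that library and −0.74 over libraries 1 and 2 of each genotype.

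Cadm3, on chromosome 1 from 173333258 to 173367695, was at 1.53, 0.773 and 2.45 FPKM in WT MGCs, compared with 0.480, 0.464 and 0.191 FPKM in the knockout. Again no Sphk1/2gc-/- library reached the lowest WT library, and the log2 difference was −0.86 (SE 0.265), or −0.52 over libraries 1 and 2 of each genotype. Cadm3 binds other nectin-like molecules across the cell contact. Its exons share 361 bases with Ackr1, a chemokine-binding receptor of red cells and venules on the same strand, which ranged from 0.382 to 0.802 FPKM in WT MGCs and from 0 to 0.0840 FPKM in the knockout; how reads in those bases were assigned is not given in the sources used here.

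The Cdh15 and Cldn18 transcripts were close to the floor in Sphk1/2gc-/- MGCs. Cdh15 encodes M-cadherin, known from muscle precursor cells, and lies on chromosome 8 from 122847966 to 122867397. Its WT MGC values were 0.578, 0.367 and 1.42 FPKM (31, 20 and 78 reads), and those of Sphk1/2gc-/- MGCs were 0.0363, 0.0363 and 0.119 FPKM (2, 2 and 7 reads). Over the 3 libraries of each genotype and scaled by depth, WT had 12.2 times the reads (95% interval 6.57 to 25.0, from an exact binomial interval, which covers counting error only).

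Cldn18, a claudin of lung and stomach epithelium on chromosome 9 from 99689461 to 99717267, had 35, 14 and 97 reads in WT MGCs (0.476, 0.187 and 1.29 FPKM) and 2, 1 and 2 reads in Sphk1/2gc-/- MGCs (0.0265, 0.0133 and 0.0248 FPKM). The depth-scaled ratio of reads was 30.3 (95% interval 12.7 to 94.6, counting error only). For both transcripts the WT libraries lay far apart, since 78 of 129 Cdh15 reads and 97 of 146 Cldn18 reads came from library 3. The log2 differences of FPKM + 1 were −0.71 (SE 0.235) for Cdh15 and −0.64 (SE 0.252) for Cldn18, which the pseudocount of 1 FPKM holds down: with 0.1 FPKM they were −2.30 and −2.34. Without WT library 3 neither transcript reached the mean of 0.5 FPKM in a genotype that was asked of a gene for the fit.

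WT library 3 was the highest MGC library for Nrcam, Cadm3, Cdh15 and Cldn18 alike. Over the 6 MGC libraries, Pearson's r of log2(FPKM + 1) was 0.990 between Cdh15 and Cldn18, 0.960 between Cadm3 and Cldn18, 0.947 between Nrcam and Cadm3, 0.944 between Cadm3 and Cdh15, 0.843 between Nrcam and Cldn18 and 0.840 between Nrcam and Cdh15, and Nrcam had 0.800 with Cdh2 as well. These values hold the genotype difference on which the transcripts were chosen. Within the Sphk1/2gc-/- libraries the 4 did not share an order, since Cdh15 was highest in library 3, where Nrcam and Cadm3 were lowest. Their promoters are shown to let a reader compare what lies upstream of each. RefSeq promoters (GRCm38.p6, 250 bases before to 50 after a start) were found for Nrcam, Cadm3, Cdh15, Cldn15, Cldn18 (with 2 starts, known for their separate use in lung and stomach) and Cldn11. The 250 bases before the start of the 4 transcripts follow, 5′ to 3′ on the strand of the gene, with each CpG in capitals.
Nrcam, chr12:44328635-44328884, plus strand: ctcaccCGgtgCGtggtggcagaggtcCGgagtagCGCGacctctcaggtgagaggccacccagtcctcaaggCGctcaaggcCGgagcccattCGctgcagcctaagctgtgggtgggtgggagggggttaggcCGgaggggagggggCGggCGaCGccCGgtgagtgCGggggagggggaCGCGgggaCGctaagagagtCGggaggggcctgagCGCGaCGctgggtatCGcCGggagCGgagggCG
Cadm3, chr1:173367696-173367945, minus strand: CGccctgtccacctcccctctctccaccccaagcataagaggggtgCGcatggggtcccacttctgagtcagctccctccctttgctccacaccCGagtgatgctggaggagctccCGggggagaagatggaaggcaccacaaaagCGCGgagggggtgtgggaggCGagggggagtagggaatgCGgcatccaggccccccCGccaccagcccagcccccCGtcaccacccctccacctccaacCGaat
Cdh15, chr8:122848124-122848373, plus strand: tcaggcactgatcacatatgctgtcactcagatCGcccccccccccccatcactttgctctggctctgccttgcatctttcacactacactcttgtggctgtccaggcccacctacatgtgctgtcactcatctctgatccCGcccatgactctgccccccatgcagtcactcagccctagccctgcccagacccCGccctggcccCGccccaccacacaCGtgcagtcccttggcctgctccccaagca
Cldn18 first start, chr9:99717268-99717517, minus strand: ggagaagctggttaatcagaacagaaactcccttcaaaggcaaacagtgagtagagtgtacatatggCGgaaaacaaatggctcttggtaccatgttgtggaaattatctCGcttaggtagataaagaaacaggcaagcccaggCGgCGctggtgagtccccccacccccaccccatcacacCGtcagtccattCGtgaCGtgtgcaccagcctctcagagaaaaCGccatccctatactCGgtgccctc
Cldn18 second start, chr9:99710064-99710313, minus strand: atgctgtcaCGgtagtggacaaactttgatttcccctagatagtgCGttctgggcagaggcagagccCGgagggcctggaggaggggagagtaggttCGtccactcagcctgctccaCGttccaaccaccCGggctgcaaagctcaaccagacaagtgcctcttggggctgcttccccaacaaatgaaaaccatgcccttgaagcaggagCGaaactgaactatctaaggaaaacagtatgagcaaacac
The windows were unlike in CpG content. Over the whole 300 bases, Nrcam had 37 CpG and 74.0% GC and Cadm3 had 17 CpG and 66.7% GC, whereas Cdh15 had 7 CpG and 61.3% GC and the Cldn18 starts had 9 and 10 CpG with 52.0% and 55.7% GC. The median of all 32851 mouse promoters was 7 CpG and 52.7% GC. The E-box CAGGTG, the letters bound by Snail and Zeb factors, was found on either strand only in the Nrcam window among the 7 windows searched, 205 bases before the start, and 20.2% of all promoters hold it. The cAMP response element TGACGTCA and the NR5A element CAAGGTCA were in none of the 7, and are in 1.79% and 1.56% of all promoters.

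The other claudins had another order among the WT libraries. Cldn15, which forms cation pores in the gut and lies on chromosome 5 from 136966616 to 136975858, gave 2.68, 2.36 and 1.34 FPKM in the WT MGC libraries and 1.06, 1.06 and 1.67 FPKM in the knockout ones. Here the genotypes overlapped, as WT library 3 lay below Sphk1/2gc-/- library 3, and the log2 difference was −0.45 (SE 0.229), or −0.77 over libraries 1 and 2 of each genotype. Cldn11, a claudin of myelin and of Sertoli cells on chromosome 3 from 31149920 to 31164324, gave 3.21, 3.41 and 2.44 FPKM in WT libraries and 1.48, 2.05 and 1.80 FPKM in knockout libraries. Although it was taken as a comparison, its genotypes did not overlap and the log2 difference was −0.53 (SE 0.176), larger in size than that of Cldn15. Both claudins were lowest among WT libraries in library 3, where the 4 transcripts above were highest, and their r with each other over the 6 MGC libraries was 0.833. With Nrcam, Cadm3, Cdh15 and Cldn18, Cldn15 had an r of 0.328, 0.262, 0.282 and 0.176, and Cldn11 one of 0.636, 0.541, 0.514 and 0.424.

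Neither Cdh2 nor Cdh1 separated the genotypes in MGCs. Cdh2, on chromosome 18 from 16588877 to 16809246, measured 32.9, 32.7 and 35.7 FPKM in WT MGCs, next to 33.4, 31.3 and 15.8 FPKM in the knockout. Libraries 1 and 2 of both genotypes were alike in level, with a log2 difference of −0.02, and the value of −0.39 (SE 0.274) over all 6 came from Sphk1/2gc-/- library 3, without which it was −0.06. Cdh1, on chromosome 8 from 106603351 to 106670246, measured 0.888, 1.68 and 0.998 FPKM in WT MGCs, next to 0.993, 2.93 and 0.569 FPKM in the knockout. The log2 difference of 0.09 (SE 0.355) turned to −0.29 without Sphk1/2gc-/- library 2 and to −0.00 without WT library 1. In both genotypes library 2 was the highest for Cdh1. The summed FPKM of 10 oocyte markers was 41.3, 103 and 66.1 in WT and 30.3, 95.8 and 119 in Sphk1/2gc-/- MGCs, so that oocyte RNA was high in library 2 of each genotype too, but also in Sphk1/2gc-/- library 3, where Cdh1 was lowest; its part in the Cdh1 level was not tested. Of the 8 transcripts, Nrcam, Cadm3, Cdh15, Cldn18 and Cldn11 had every Sphk1/2gc-/- MGC library below every WT library, a pattern held by 9.17% of the 15279 genes tested; as 4 of these 5 were chosen on this contrast, nothing is read from the count.

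Markers of other cells moved with the same contrast, and in bulk libraries fewer cells of a type and less RNA per cell cannot be told apart. The summed FPKM of 8 endothelial markers was 13.6 to 17.5 in WT and 9.04 to 10.5 in Sphk1/2gc-/- MGCs, with 6 of the 8 lower in every Sphk1/2gc-/- library, among them the claudin Cldn5 (1.63 to 2.26 against 0.313 to 0.710 FPKM), and with Vwf near 0. The 10 leukocyte markers summed to 165 to 313 FPKM in WT and to 24.6 to 115 FPKM in Sphk1/2gc-/- MGCs, though only S100a8 and S100a9 were lower in every library. S100a9 alone was at 90.9 to 139 FPKM in WT and 4.56 to 20.2 FPKM in Sphk1/2gc-/- MGCs. Adgre1, Ptprc and Cd3e were higher in Sphk1/2gc-/- libraries 1 and 2 than in any WT library (Adgre1 4.25 and 5.24 against 0.969 to 2.49 FPKM), but not in library 3. The list was therefore divided. The 8 markers of surface epithelium, a tissue that expresses E-cadherin and claudins, summed to 31.6 to 45.5 against 24.4 to 34.7 FPKM and overlapped, with 3 of 8 lower in every library. WT library 3, the highest for Nrcam, Cadm3, Cdh15 and Cldn18, was also the highest for the endothelial sum (17.5 FPKM), for 10 markers of stroma and pericytes (206 FPKM against 93.0 to 131 in the others) and for 6 theca markers (223 FPKM against 64.7 to 153 in the others). The same library was the highest for 10 granulosa markers (16046 FPKM against 9449 to 14607 in the others). Most of its theca sum was Cyp17a1 (170 FPKM). The theca markers Aldh1a1 and Ptch1 and the stroma marker Dcn were instead at their lowest among WT libraries there. Of the nerve and Schwann cell list, Sox10 and Stmn2 were at 0.0447 FPKM or less in all MGC libraries. The part of these cells in the values of the adhesion transcripts was not tested.

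**Figure D2:**
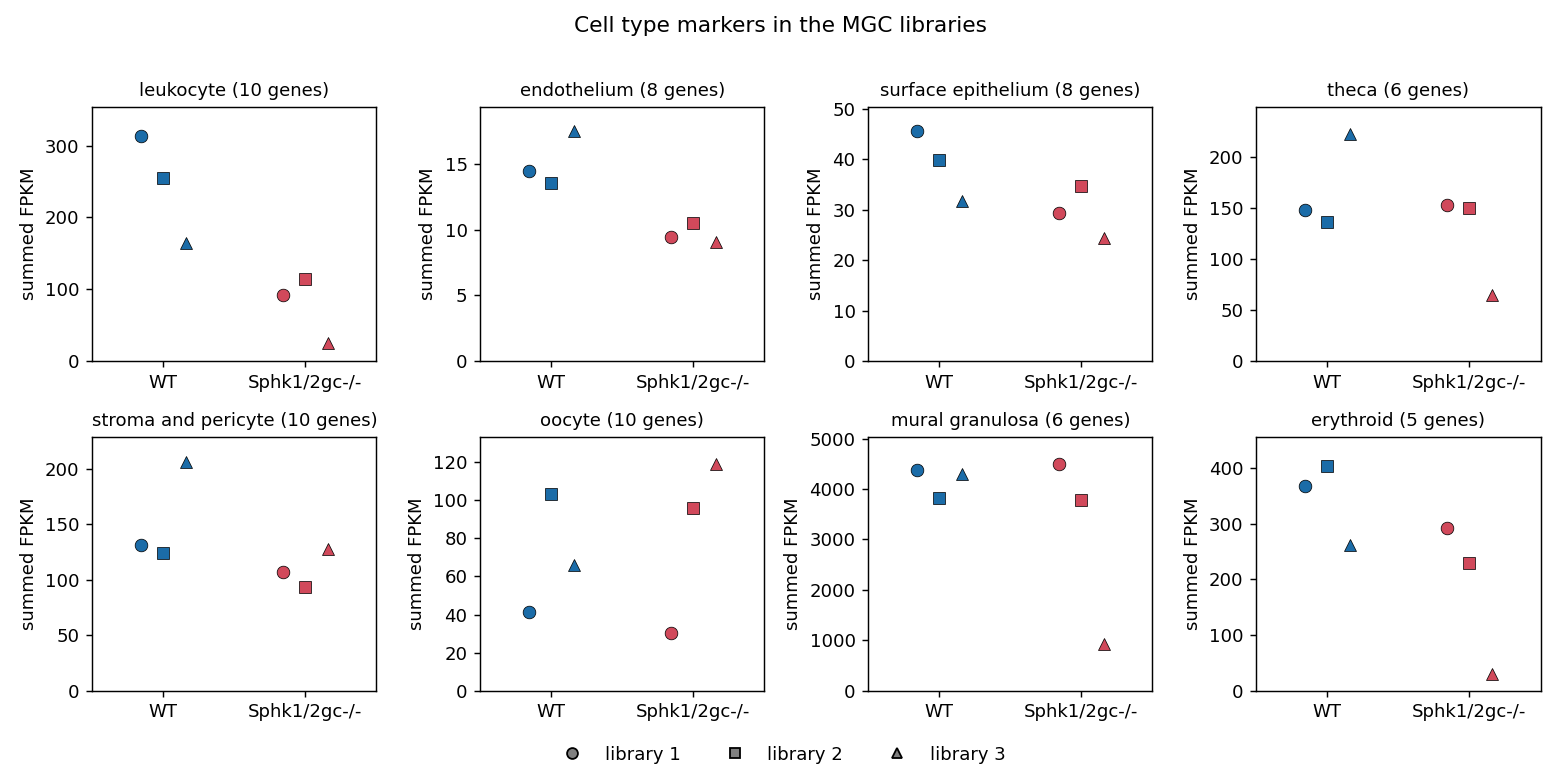
Summed FPKM (linear axis from 0) of marker lists in the 6 MGC libraries; each point is a library, and symbols stand for the library number. Endothelial and leukocyte sums are lower in every Sphk1/2gc-/- library than in every WT library, oocyte markers are high in library 2 of each genotype and in Sphk1/2gc-/- library 3, and mural markers are low in Sphk1/2gc-/- library 3 (924 FPKM). Of the 10 leukocyte markers only S100a8 and S100a9 are lower in every Sphk1/2gc-/- library.

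The levels of the 8 transcripts in the follicle wall were then set against those around the oocyte. Cdh2 was the only one above the filter of 0.5 FPKM in both cell types. It went from 4.24, 4.71 and 4.02 FPKM in WT cumulus libraries to 32.7 to 35.7 FPKM in WT MGCs. Its difference was the largest of the 8 on the log2(FPKM + 1) scale (2.71, SE 0.103, limma adjusted p = 5.03e-07). That rank rested on the pseudocount of 1 FPKM, as the ratio of its means, 7.82, was the smallest of the 8. With a pseudocount of 0.1 FPKM, Cldn11 (4.23), Cadm3 (3.94), Cdh1 (3.53), Nrcam (3.53) and Cldn15 (3.48) passed Cdh2 (2.94). The median of all tested genes was shifted by 0.58 log2 units toward MGCs, and the values here are to be read against it. The other 7, Cdh1 and Cldn11 among them, passed the filter through their level in MGCs alone, so that the direction of their difference was largely given. In addition, 5 of them had been chosen on values that include the WT MGC libraries. Test results are therefore given only for Cdh1, Cdh2 and Cldn11, with the fit without a filter beside those of Cdh1 and Cldn11. Of the 15339 genes tested, 55.5% were higher in MGCs and 26.3% were lower. Cldn11, one of the comparison transcripts, had 0, 0.0595 and 0.183 FPKM in WT cumulus cells (log2 difference 1.89, SE 0.138, limma adjusted p = 9.17e-06, and 5.37e-05 with no filter). Among the chosen transcripts, given with no test, Nrcam was at 0.242, 0.0750 and 0.153 FPKM in WT cumulus cells and differed by 1.71 (SE 0.175), and Cldn15, at 0.205, 0.0524 and 0.0536 FPKM, differed by 1.48 (SE 0.184).

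Cadm3 and Cdh1 were near absent around the oocyte. Not a read of Cadm3 was counted in the 6 cumulus libraries, which sets WT MGCs at least 61.6-fold higher when each cumulus library is put at its floor of 3 reads (log2 difference 1.32, SE 0.228). For Cdh1, which had 0, 0 and 2 reads in WT cumulus cells, the log2 difference was 1.10 (SE 0.153, limma adjusted p = 0.000315, and 0.000609 with no filter). Cdh15 (0.66, SE 0.211) and Cldn18 (0.65, SE 0.229), at 17 and 3 reads over the WT cumulus libraries, had the smallest differences on the log2(FPKM + 1) scale, and these depended on the scaling. They were 0.08 and 0.29 under quantile normalization, 0.44 and 0.51 when the library medians of FPKM were set equal before the log, and −0.14 and −0.15 under median scaling, in which the library medians of log2(FPKM + 1) are set equal. The last scaling adds its shift to transcripts at 0 as well. Without WT MGC library 3 neither transcript passed the filter. Under median scaling the calls of Cdh2 and Cldn11 held and that of Cdh1 ended (limma adjusted p = 0.0852), where 28.9% of all genes were called higher in MGCs. With medians set equal before the log all 3 held, where 37.4% of all genes were called higher.

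**Figure D3:**
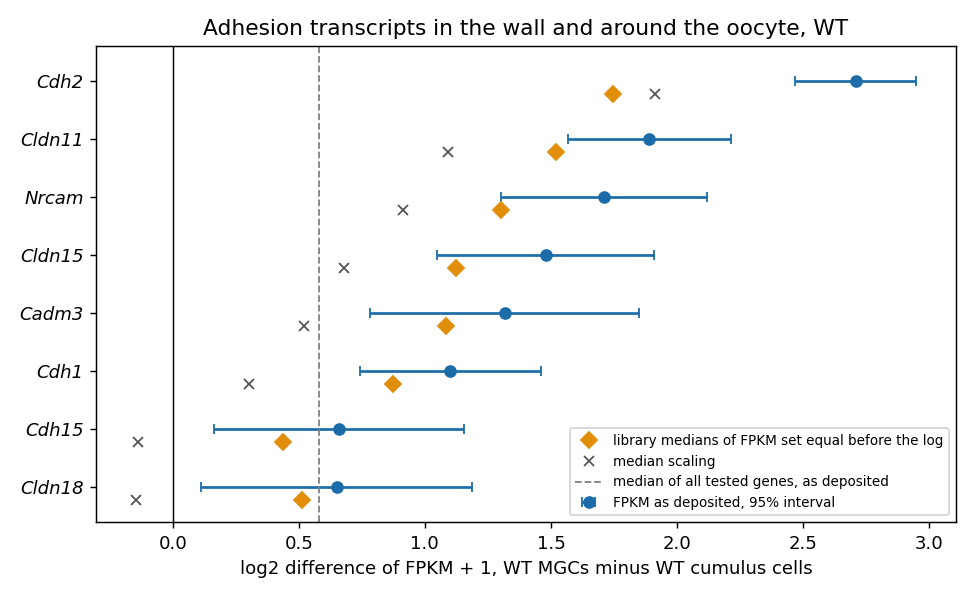
Log2 difference of FPKM + 1 between WT MGCs and WT cumulus cells (3 libraries each), with 95% intervals from limma, for the 8 transcripts; diamonds and crosses give the same difference after the 2 scalings, and the dashed line is the median of all tested genes (0.58). Cdh2, Cldn11, Nrcam, Cldn15, Cadm3 and Cdh1 have intervals above the dashed line, while those of Cdh15 and Cldn18 cross it. The intervals of the chosen Nrcam, Cadm3, Cdh15, Cldn15 and Cldn18 are given as a description.

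In Sphk1/2gc-/- mice a test was run for the 3 comparison transcripts, of which Cldn11 and Cdh1 again passed the filter through MGCs alone. Of the 14983 genes tested there, 49.7% were higher in MGCs. Cdh2 went from 2.38, 2.13 and 2.91 FPKM in cumulus cells to 15.8 to 33.4 FPKM in MGCs (log2 difference 2.94, SE 0.291, limma adjusted p = 0.000106), and Cldn11 from 0.0568, 0.0812 and 0.167 FPKM to 1.48 to 2.05 FPKM (1.33, SE 0.151, limma adjusted p = 0.000200, and 0.000789 with no filter). Cdh1 had 1, 0 and 3 reads in Sphk1/2gc-/- cumulus cells and differed by 1.18 (SE 0.319, limma adjusted p = 0.0120, and 0.0265 with no filter). Its call ended under median scaling (limma adjusted p = 0.389) and quantile normalization (limma adjusted p = 0.0594). Nrcam (0.64, SE 0.226) and Cldn15 (0.99, SE 0.198) remained higher in MGCs in every library, given as a description. Cadm3 in Sphk1/2gc-/- MGCs was still at least 17.2-fold above the cumulus floor, whereas Cdh15 (11 reads in MGCs, 4 in cumulus cells) and Cldn18 (5 reads and 1) were too scarce in both for a comparison.

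Within cumulus cells, a contrast the choice of transcripts did not use, Cdh2 was the only one of the 8 that passed the filter on low values, and it fell. The WT cumulus libraries were at 4.24, 4.71 and 4.02 FPKM and the Sphk1/2gc-/- libraries at 2.38, 2.13 and 2.91 FPKM. The groups did not overlap, and the Sphk1/2gc-/- mean was 0.572 times the WT mean (log2 difference of FPKM + 1 −0.62, SE 0.149, 95% interval −0.96 to −0.28, limma adjusted p = 0.0217). Of the 12205 genes tested in cumulus cells, 12.7% were lower and 9.66% were higher in Sphk1/2gc-/- libraries. The call was narrow: adjusted p was 0.0608 with no filter on low values, and 0.0636, 0.0884 and 0.0834 without WT library 1, WT library 2 or Sphk1/2gc-/- library 2. Without WT library 3, which lists more genes than the others, it held (limma adjusted p = 0.0451). Summed granulosa markers were lower in the Sphk1/2gc-/- cumulus libraries as well (3479 to 4030 against 4745 to 6084 FPKM, 7 of 10 lower in every library). Theca markers also summed lower (10.9 to 14.1 against 26.0 to 57.8 FPKM), with 2 of 6 lower but 1 higher in every library. Endothelial markers did so too (0.602 to 0.871 against 1.15 to 1.84 FPKM), with 2 of 8 lower in every library. Cumulus markers summed higher (1022 to 1241 against 265 to 597 FPKM), with 3 of 6 higher in every library. The part of these markers in the fall of Cdh2 was not tested.

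The other 7 did not reach the filter in cumulus cells, and their reads are given with no test between libraries. Nrcam, the most abundant of them, had 52, 18 and 36 reads in WT and 11, 32 and 32 reads in Sphk1/2gc-/- cumulus libraries, and the groups overlapped. The depth-scaled ratio of WT to Sphk1/2gc-/- reads was 1.58 (95% interval 1.17 to 2.15, counting error only). Cdh15 had 2, 7 and 8 reads in WT and 1, 1 and 2 in Sphk1/2gc-/- cumulus libraries, a ratio of 4.76 (95% interval 1.55 to 19.4, counting error only). In FPKM every Sphk1/2gc-/- cumulus library was below every WT one (0.0156 to 0.0321 against 0.0382 to 0.140). Cldn15 was at 7 reads or fewer in 5 of the 6 libraries and at 17 reads (0.417 FPKM) in Sphk1/2gc-/- library 3. Cldn11 had 0 to 6 reads in a library of either genotype, and Cldn18 and Cdh1 at most 3. Whether the genotype effects in MGCs and cumulus cells differ from each other was not tested.

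The partners of these molecules were examined as lists, which hold 144 adhesion genes beside the 8. In MGCs, 0 of the 82 that could be tested differed between genotypes at a limma adjusted p of 0.05 or less, where 0.0393% of all genes did. Before adjustment, 12 of the 82 were lower and 4 higher at a p of 0.05 or less, against 901 lower and 505 higher of 15279 genes, and their median log2 difference was −0.11 against −0.00 for all genes. Without Sphk1/2gc-/- library 3, which stood apart, 2 of 81 were called, both lower, where 1.83% of all genes were called. They were the actin linker Vcl (−0.66, SE 0.0974, limma adjusted p = 0.0454) and Cadm4 (−1.26, SE 0.177, limma adjusted p = 0.0403), a nectin-like relative of Cadm3 whose means over all 6 MGC libraries were 2.69 ± 0.535 FPKM (WT) and 0.603 ± 0.191 FPKM (knockout) (SD, n = 3); both are named after their values were seen. Over libraries 1 and 2 of each genotype, 15 of 80 were lower and 7 higher, where 16.1% of all genes were called in either direction.

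Among the relatives of the classical cadherins, β-catenin, encoded by Ctnnb1, which links cadherins to the cytoskeleton, was the most abundant and steady. It had means of 95.4 ± 1.95 FPKM (WT) and 96.4 ± 3.19 FPKM (knockout) in MGCs, and 35.2 ± 1.11 against 42.3 ± 6.24 FPKM in cumulus cells (SD, n = 3; log2 difference in cumulus cells 0.25, limma adjusted p = 0.284). Of the other 20 listed cadherins, 0 could be tested between genotypes in cumulus cells, and 4 of 5 were higher in WT MGCs than in WT cumulus cells, against 55.5% of all genes. These 5 passed the filter through MGCs alone, so that their direction was largely given and nothing is read from the count. Cldn12, the most abundant claudin, was at 5.24 ± 0.233 and 5.29 ± 0.483 FPKM in WT and Sphk1/2gc-/- cumulus cells (limma adjusted p = 0.972). Cldn1, named after its values were seen, was at 0.884 ± 0.0851 FPKM in WT MGCs but at 3.68 ± 1.47 FPKM in WT cumulus cells (SD, n = 3), a log2 difference of −1.27 (SE 0.212, limma adjusted p = 0.000881).

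**Figure D4:**
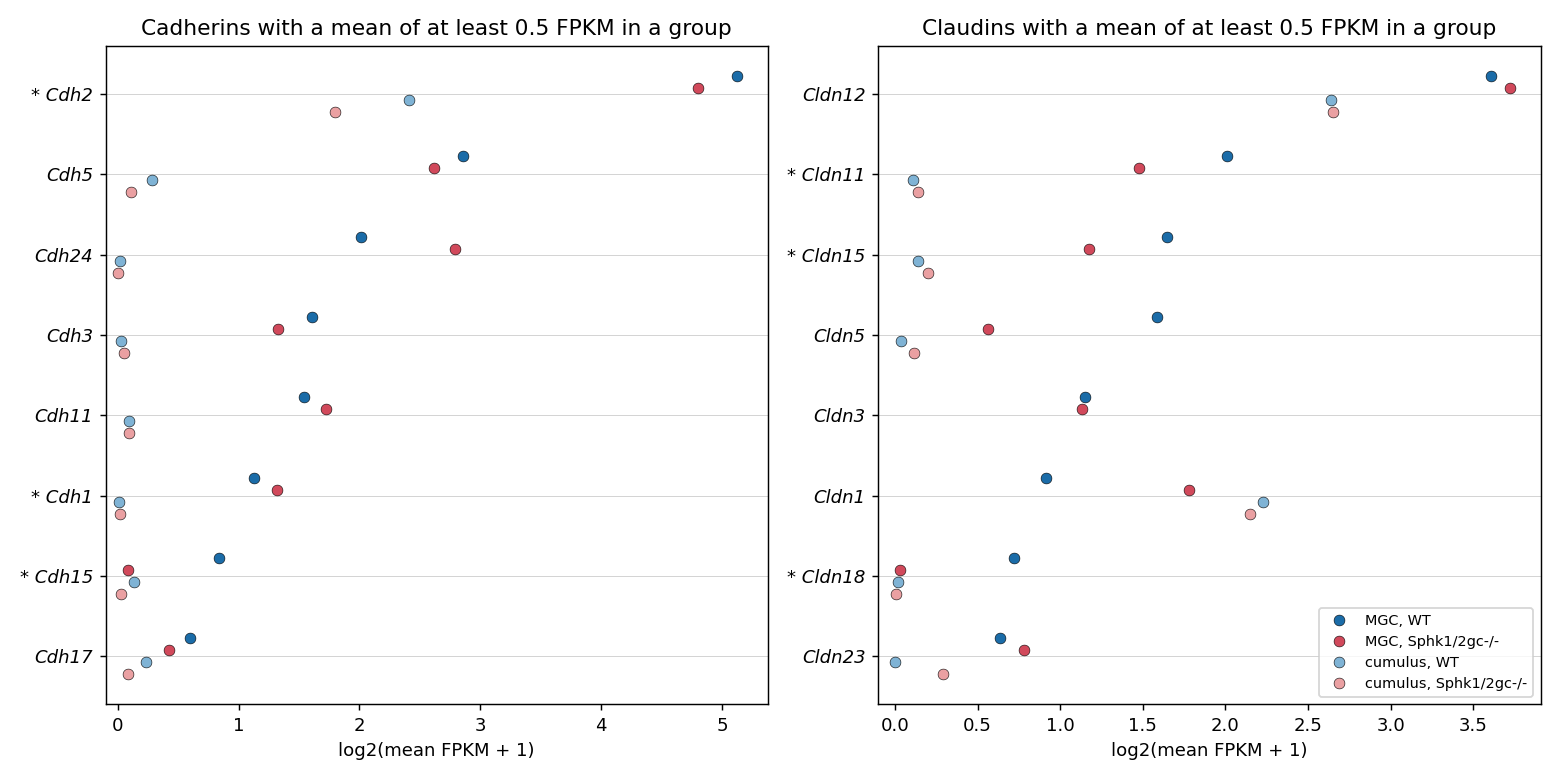
Mean level, as log2(mean FPKM + 1), of the 8 cadherins and the 8 claudins that reached a mean of 0.5 FPKM in a group, in the 4 groups of 3 libraries; an asterisk marks the transcripts described here, and Cldn3 was not listed for cumulus cells. Cdh2 is the highest cadherin in each group, Cldn12 is the highest claudin, and Cldn1 is the claudin whose cumulus level lies above its MGC level.

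In cumulus cells, 3 of 50 testable adhesion genes beside the 8 were lower and 10 were higher in Sphk1/2gc-/- libraries, against 12.7% and 9.66% of all genes, and their median log2 difference was 0.20 against −0.06 for all genes. Those that fell were Jam2, a tight junction immunoglobulin (45.5 to 24.5 FPKM in the means, −0.87, SE 0.135, limma adjusted p = 0.00468), Ctnna2, an α-catenin of neurons (0.920 to 0.204 FPKM, −0.68, SE 0.151, limma adjusted p = 0.0162), and Ank1, an ankyrin (1.20 to 0.497 FPKM, −0.56, SE 0.140, limma adjusted p = 0.0260). Ctnna2 and Ank1 were named after their values were seen. Both passed the filter of 0.5 FPKM through the WT libraries alone, so that their direction was largely given. The desmosome list had 2 of 6 higher and 0 lower. Its plakophilin Pkp2 measured 1.56, 1.91 and 1.52 FPKM in the WT libraries and 4.31, 9.12 and 10.1 FPKM in the knockout ones (1.66, SE 0.270, limma adjusted p = 0.00537). Perp, a membrane protein of desmosomes, had means of 22.1 ± 10.1 and 43.8 ± 7.01 FPKM (SD, n = 3; 1.03, SE 0.285, limma adjusted p = 0.0359). Within the cumulus libraries Cdh2 and Jam2 were lower while Pkp2 and Perp were higher.

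Of 8 repressors of the E-cadherin gene, 6 could be tested in cumulus cells and 0 were called with limma (1, Twist1, was higher at an unadjusted p of 0.05 or less), and 0 of 6 were called in MGCs (1, Snai2, was lower at an unadjusted p of 0.05 or less). Twist1 and Snai2 were named after their values were seen. Zeb2 was the most abundant, with means of 39.2 ± 2.50 FPKM (WT) and 29.8 ± 8.70 FPKM (knockout) in MGCs, and 8.85 ± 1.39 and 8.31 ± 2.28 FPKM in cumulus cells (SD, n = 3).

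For Cdh2 and Cldn11, which averaged 1 FPKM or more over all libraries, the genes with the most similar pattern were looked up among 11829 genes. Those nearest to Cdh2 were Gm24270 (Pearson's r = 0.993), Rian (0.992) and Me1 (0.991), and those nearest to Cldn11 were Clip2 (0.998), Col9a2 (0.997) and Ephb6 (0.996). These values describe 12 libraries that share cell type and genotype, and they mostly describe the gap between MGCs and cumulus cells. Over the 4 groups Me1, the malic enzyme, had means of 172, 115, 23.9 and 13.2 FPKM in WT MGCs, Sphk1/2gc-/- MGCs, WT cumulus cells and Sphk1/2gc-/- cumulus cells.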

How the data were processed

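The authors sequenced both cell types of both genotypes from NEBNext Ultra libraries, a kit that does not mark strand. The deposited values are FPKM, in 1 table of 29101 genes for MGCs and 1 of 33137 genes for cumulus cells, with 26382 genes in both and 0 columns left unused. The submitters' processing notes name HISAT2 and GRCm38; the counting tool, annotation and filters are not given in the sources used here, and the file headers do not name the unit. It was taken as FPKM because values times GENCODE M21 exon length (64 and 66 listed genes lack one) fell on whole reads for 92.9% to 94.0% of the values below 200 reads in each library, within 0.02 reads. That step gave the depth, and intervals and floors (3 reads) from it cover counting error only.

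The 8 transcripts and the gene lists were chosen with earlier results of these data known. Genes that averaged 0.5 FPKM or more in a group were compared with limma 3.58.1 (R 4.3.3, variance trend) on log2(FPKM + 1), with Benjamini-Hochberg adjustment over all genes tested and a limit of 0.05 for a call. A fold on this scale understates the change of low transcripts. MGCs and cumulus cells were compared over genes in both tables, since FPKM is scaled within each library and the same exon lengths fitted both. No p is given for the 8 between genotypes in MGCs, or for the 5 chosen ones between cell types. The 5 are included in a count of calls between WT cell types, from which nothing is read. Lists covered cadherins, catenins, desmosomes, claudins, tight junction partners, nectins and SynCAMs, the L1 family with contactins and ankyrins, other immunoglobulin molecules, connexins, integrins and E-cadherin repressors, plus cell type markers. Beside the 8, genes were named if called in cumulus cells with a fold change of at least 2 or if the most abundant of their list; others are marked as named after their values were seen, and some listed genes are not reported here by name. On simulated tables the MGC comparison of genotypes recovered 42% of genes changed by 1 log2 unit and 81% of those changed by 2, and the cumulus comparison 58% and 95%.

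Libraries of the same number were checked for pairing by the correlation of their deviations from the group means. In MGCs it was 0.235, 0.172 and 0.230 between genotypes, so that the numbers pair these libraries by the limit of 0.1, although the labels state no shared animal. It was −0.154, −0.0513 and 0.120 in cumulus cells. Alternatives were another pseudocount (0.1 FPKM), no filter or a filter of 1 FPKM, quantile normalization, scaling of library medians, a fold change of at least 2, a replicate block and leaving out each library. Scaling of medians before the log, and the lists without Sphk1/2gc-/- MGC library 3, were added after seeing the data. Figures were drawn with matplotlib 3.10.9.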

Additional observations from a re-analysis of the deposited data

How the results depend on the processing

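Cdh2 was the only transcript tested between genotypes in cumulus cells. Its count of 1 call became 0 with no filter on low values, where 7 of the 8 were tested, and with a fold change of at least 2. Over the fits that leave out a library the count lay between 0 and 1, and the log2 difference of Cdh2 between −0.71 and −0.55. Libraries of the same number in cumulus cells share only a number, and a replicate block gave 0 calls (limma adjusted p = 0.0576); it changed no call between MGCs and cumulus cells, and in MGCs 0 adhesion genes were called with or without it. Between WT MGCs and WT cumulus cells, all 8 transcripts were at a limma adjusted p of 0.05 or less, but 7 passed the filter through MGCs alone. Nrcam, Cadm3, Cdh15, Cldn15 and Cldn18 had also been chosen on values that include the WT MGC libraries. The count was therefore largely given, and nothing is read from it. It became 4 under median scaling, where Cdh15 (−0.14) and Cldn18 (−0.15) reversed, and 6 under quantile normalization. It lay between 6 and 8 when a library was left out, with 6 tested without WT MGC library 3. Of the 3 comparison transcripts, only Cdh1 lost its call under median scaling (limma adjusted p = 0.0852), and all 3 held under quantile normalization. In Sphk1/2gc-/- mice the 3 calls stayed at 3 when any library was left out. Between genotypes in MGCs, Cdh1 lay between −0.29 and 0.37 over the fits without a library, −0.00 without WT library 1, and the value of Nrcam between −1.33 and −0.90. A pseudocount of 0.1 FPKM made the differences of Nrcam, Cadm3, Cdh15 and Cldn18 larger (−1.97, −1.75, −2.30 and −2.34). Likeness to Cdh2 and Cldn11 measured by Spearman's rho was 0.907 to 0.958 for the 6 genes named. Cdh15, Cldn18 and the cumulus values of 7 transcripts are limited by counts of 0 to 97 reads in a library.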

Other observations

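Integrins, the receptors that bind cells to the extracellular matrix, were examined beside the junction genes. In cumulus cells 4 of the 10 integrin genes tested were higher in Sphk1/2gc-/- libraries and 0 were lower, against 9.66% and 12.7% of all genes. Before adjustment 7 were higher and 0 lower. The 10 genes had a median log2 difference of 0.58 against −0.06 for all genes. Itga5, the α chain of the fibronectin receptor, measured 0.839, 0.288 and 1.01 FPKM in WT cumulus libraries and 6.90, 9.88 and 14.8 FPKM in the knockout ones (log2 difference 2.72, SE 0.276, limma adjusted p = 0.00101). Itga3, the α chain of a laminin receptor, was at 0.185, 0.244 and 0.349 FPKM against 1.12, 3.33 and 5.46 FPKM (1.63, SE 0.353, limma adjusted p = 0.0149). Their partner Itgb1 was at 44.8, 51.6 and 56.7 FPKM against 83.2, 70.8 and 79.6 FPKM (0.60, SE 0.154, limma adjusted p = 0.0270), and Itgb5 rose from 11.1 ± 1.95 to 23.9 ± 4.48 FPKM (SD, n = 3; limma adjusted p = 0.00872). All 4 were higher in every Sphk1/2gc-/- cumulus library than in every WT one. Itga3 passed the filter through the Sphk1/2gc-/- libraries alone, so that its direction was largely given. In WT mice, 15 of 15 integrin genes tested were higher in MGCs than in cumulus cells, against 55.5% of all genes. Several of them, Itga3 included (mean of 0.259 FPKM in WT cumulus cells), passed the filter through MGCs alone. Their direction was largely given, and nothing is read from the count.

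Of the connexins, 0 of 4 tested were called with limma (0 lower and 2 higher at an unadjusted p of 0.05 or less), and Gja1, the main gap junction protein of granulosa cells, had cumulus means of 773 ± 96.1 FPKM (WT) and 736 ± 76.8 FPKM (knockout) (SD, n = 3). Nectins and SynCAMs had 0 of 4 called (1 higher before adjustment) and claudins beside the 8 had 0 of 2 (0 before adjustment). Catenins and their linkers had in cumulus cells 1 lower (Ctnna2) and 1 higher (Ctnnal1) of 8, tight junction partners 1 lower (Jam2) and 2 higher (F11r among them) of 10, the L1 family with contactins and ankyrins 1 lower (Ank1) of 3, and other immunoglobulin molecules 1 higher (Mcam) of 3. Ctnnal1, F11r and Mcam were named after their values were seen. The genes with the highest mean over the 12 libraries in the remaining lists were Pvr, a poliovirus receptor relative of the nectins (30.6 FPKM in WT MGCs, 2.17 in WT cumulus cells), Ank3 (3.95 and 3.49 FPKM) and Vcam1 (13.0 and 1.11 FPKM). In Sphk1/2gc-/- MGCs Vcam1 measured 39.0, 39.7 and 10.3 FPKM, against 10.2, 10.7 and 18.2 FPKM in WT MGCs. Its genotypes overlapped (limma adjusted p = 0.623).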
